A study of Rattus norvegicus with 12 samples.

Results

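Collagen folding and unfolded protein response genes are described here in rat vein before and after it was grafted into an artery. The group was given as a list of 42 gene names, and its members were found by matching the RefSeq accession of each array probe, without its version, to those names. A tested probe was found for 37 of the 42, out of 12353 genes with a tested probe in all. No matched probe was found for Manf, Pdia3, Ern1, Sec24d and Bmp1. Expression was measured on 12 one-colour Agilent arrays of male rats, 3 each at days 0, 7, 14 and 28. Day 0 was vein from control rats without surgery, and days 7, 14 and 28 count from an operation that placed the external jugular vein as a bypass in the carotid artery. The labels number no replicate apart from the others, so the numbers 1 to 3 used here only name arrays and pair nothing. The design text calls the samples after surgery independent experiments. Each sample title carries its own code, and codes with the letter Z occur at days 7 and 28. No label says that a code is an animal, so a p-value reflects only how far these arrays differ, which could be technical.

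Collagen chains enter the endoplasmic reticulum (ER) through the Sec61 channel as they are made. There prolyl and lysyl hydroxylases modify them, and chaperones hold them until 3 chains wind into a helix, after which COPII vesicles carry the procollagen onwards. When unfolded proteins gather in the ER, the sensors Ern1, Eif2ak3 and Atf6 start the unfolded protein response (UPR), whose transcription factors raise ER chaperone genes such as Hspa5. A vein placed under arterial pressure thickens its wall with new cells and collagen-rich matrix.

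Levels are log2 of the probe's processed intensity minus the 75th percentile of the array, so a level is read against its own probe on other arrays and not against other genes. All 37 probes were well above background on all 12 arrays, and 0 spots were saturated. Between 71.9% and 82.6% of gene spots per array were well above background. On 2 arrays the scanner software called many spots non-uniform: 460 on day 0 replicate 3 and 393 on day 7 replicate 3, where the rest had 2 to 11. Values without both arrays are given below where they change a call or turn a direction against day 0. By scan time, scan 1 held 2 arrays of day 14 and 2 of day 28, scan 2 held the 3 of day 7 and 1 of day 14, scan 3 held 2 of day 0 and 1 of day 28, and scan 4 held day 0 replicate 3. The day 28 comparison alone shares a scan with day 0.

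The makeup of the tissue moved with the day. All 7 contractile smooth muscle markers and all 7 endothelial markers tested were well above background on every array. So were all 7 fibroblast, 9 of 12 macrophage, 7 of 8 T cell and 6 of 7 skeletal muscle markers. The count was 6 of 7 for adipocyte, 4 of 7 for B and plasma cell and 3 of 5 for liver markers. Calls and summed levels of the incomplete lists include the dimmer markers. Endothelial markers were lower than day 0 for 4, 4 and 2 of 7 genes at days 7, 14 and 28, and 1 was higher at day 28, with summed levels, in multiples of the array's 75th percentile, of 47.2 to 61.2 at day 0 and 7.62 to 35.1 later. Macrophage markers were higher than day 0 for 10 of 12 genes at day 7, 11 at day 14 and 9 at day 28, and their summed level was 25.2 to 125 at day 0 against 195 to 504 on the graft days. Fibroblast markers were higher for 5, 5 and 4 of 7 genes with summed levels of 47.6 to 91.2 at day 0 and 92 to 127 later, and 1 of them (Dcn) was lower at day 14. Smooth muscle markers were lower for 7, 7 and 6 of 7 genes, from 719 to 1234 at day 0 to between 116 and 234 later. B and plasma cell markers, of a cell type rich in ER, were higher for 4, 1 and 4 of 7 genes, with summed levels of 2.00 to 3.65 at day 0 and 2.15 to 3.49 later. Skeletal muscle markers were higher for 0, 4 and 7 of 7 genes, with summed levels of 11.3 to 14.3 at day 0, 14.0 to 16.9 at day 7, 16.1 to 92.4 at day 14 and 53.9 to 739 at day 28. Adipocyte markers were lower for 4, 5 and 4 of 7 genes, from 70.0 to 130 at day 0 to between 18.4 and 42.2 later. T cell markers were higher for 5, 6 and 2 of 8 genes, with overlapping summed levels of 3.21 to 58.0 at day 0 and 6.42 to 47.7 later. Chondrocyte and osteoblast markers were higher for 1 of 6 genes on each graft day and lower for 0, 1 and 1. The largest change in that list was 8.43, 5.91 and 9.34, and its summed levels were 1.08 to 2.13 at day 0 and 1.70 to 6.26 later. The part of these shifts in the results below was not tested, and in whole tissue fewer cells of a type and less RNA per cell cannot be told apart.

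Most called members were higher in the graft than in unoperated vein, and the set of genes was nearly the same on each graft day. All 3 comparisons use the same day 0 arrays and 1 fit, so the agreement between days is not made of separate results. At day 7, 19 of the 37 were higher and 0 were lower, where 17.7% of all 21063 probes tested were higher and 15.4% lower (limma, adjusted p under 0.05 over all probes). At day 14, 20 were higher and 4 lower, against 20.1% and 17.4% of probes. At day 28, 19 were higher and 2 lower, against 17.4% and 16.5% of probes. Over the 12353 genes, each by its brightest probe, 20.1%, 22.5% and 20.1% were higher at days 7, 14 and 28. The shares of genes that were lower were 16%, 18.4% and 15.4%. The median log2 change of the 37 was 0.53, 0.57 and 0.56, beside -0.026, 0.021 and 0.0092 over all probes. Over the 12353 genes the medians were -0.00018, 0.038 and 0.075. The same 18 members were higher on all 3 days, 22 were higher on at least 1, 5 were lower on at least 1, and 10 were called on none. The share of all probes higher on all 3 days is not given here, so the 18 have no such share beside them. Without the 2 arrays with many non-uniform spots, the members higher on all 3 days were the same 18.

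**Figure D1:**
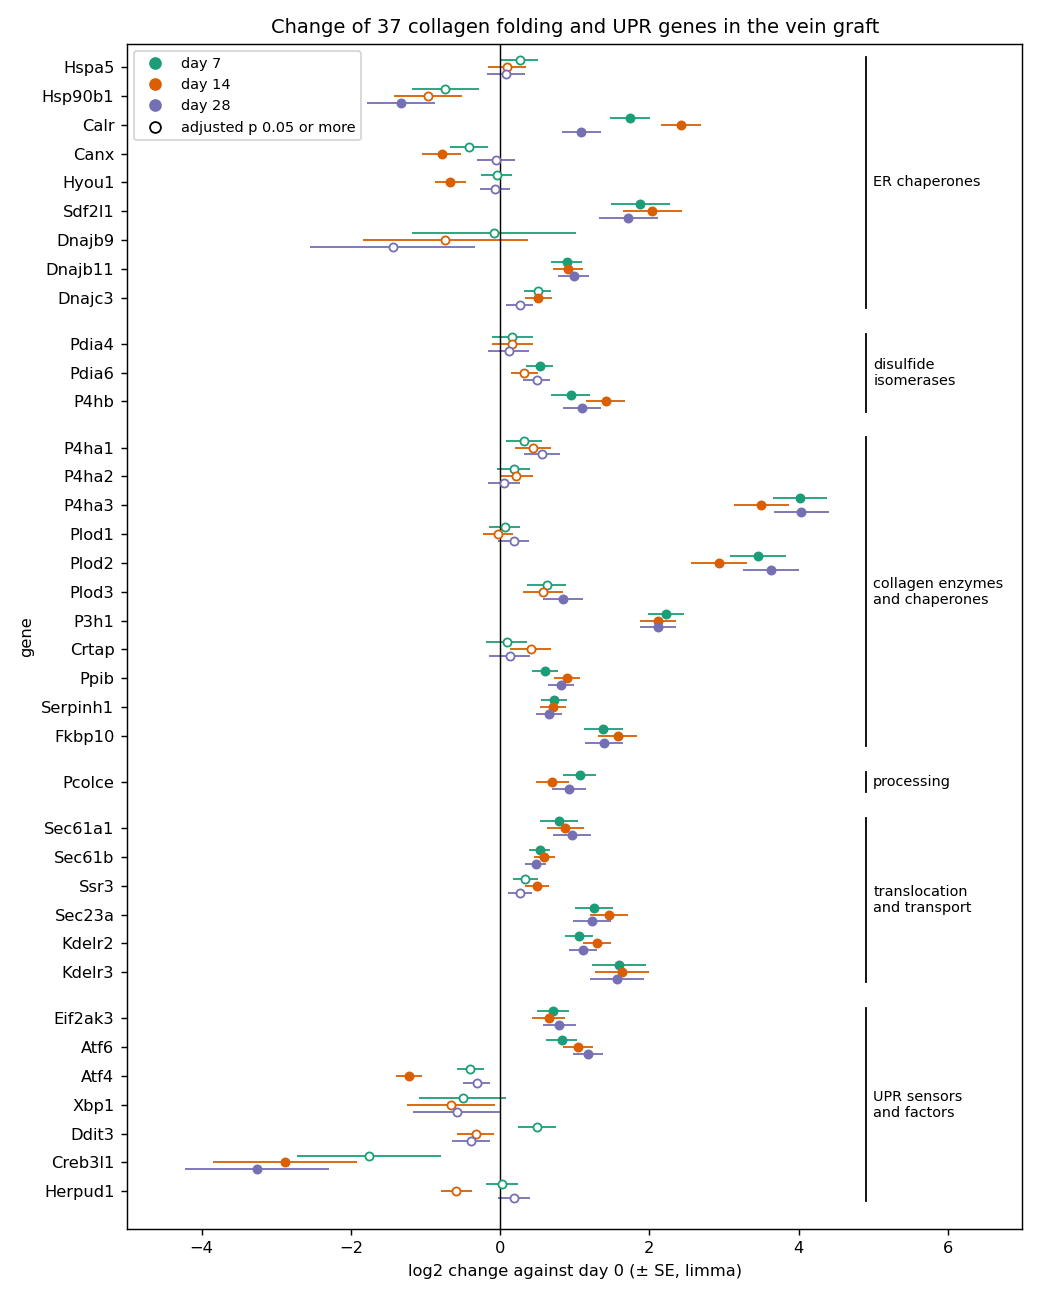
Log2 change of each of the 37 genes against day 0 (x axis) at days 7, 14 and 28, grouped by role, with SE bars from limma and 3 arrays a day; filled points passed an adjusted p of 0.05. P4ha3 and Plod2 lie farthest to the right at about 3 to 4, the 6 translocation and transport genes all lie right of 0, and the ER chaperones and the UPR factors lie on both sides.

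These calls depend on how the scan is treated. With the scan as a random block 16, 20 and 20 members were called at days 7, 14 and 28, beside 5485, 7260 and 6745 of all 21063 probes. With the scan as a fixed block 0, 1 and 3 members were called, with 7, 12 and 11 at an unadjusted p under 0.05. Of all probes, 55, 1034 and 1363 were called with the fixed block. The medians of the members with the fixed block were 0.54, 0.42 and 0.48. In that fit every change against day 0 runs through day 28 replicate 3, the only graft array scanned with day 0. Day 0 replicate 3, alone in its scan, adds nothing to these changes. The call that remained at day 14 was Calr, and those at day 28 were P4ha3, Plod2 and P3h1. Within scan 3, where day 28 replicate 3 sits with day 0 replicates 1 and 2, the median difference over all 37 members was 0.48. It is the same quantity as the day 28 median with the fixed block, and no second result. These 3 arrays are part of the fit that gave the day 28 calls, so this is no independent check of them. When only the arrays compared entered the fit, 7, 16 and 11 members were called, beside 2887, 5766 and 4635 of all probes. Of the 64 calls against day 0, 44 were kept in every fit that left out 1 array, and the exceptions are given beside each gene.

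Among the 11 collagen hydroxylases and collagen chaperones, 6 were higher at day 7, 6 at day 14 and 7 at day 28, and none was lower. The shares of all 12353 genes on those days were 20.1%, 22.5% and 20.1% higher and 16%, 18.4% and 15.4% lower. The largest change of any member was in P4ha3, a catalytic subunit of the prolyl 4-hydroxylase that makes the hydroxyproline needed for a stable helix. P4ha3 levels were -3.22, -4.08 and -3.58 at day 0, 0.73, 0.99 and -0.55 at day 7, -0.24, 0.05 and -0.19 at day 14, and 0.37, 0.48 and 0.37 at day 28. All 9 graft arrays lay above all 3 of day 0, and day 7 replicate 3 was the lowest of the graft. P4ha3 rose by 4.02 ± 0.36 at day 7 (SE; adjusted p = 4.46e-05), 3.50 ± 0.36 at day 14 (adjusted p = 7.22e-05) and 4.04 ± 0.36 at day 28 (adjusted p = 6.26e-05), which is 16.2-fold, 11.3-fold and 16.4-fold. The other catalytic subunits did not pass the test on any day: P4ha1 stood at 0.32 ± 0.24, 0.44 ± 0.24 and 0.56 ± 0.24 over days 7, 14 and 28, and P4ha2 at 0.18 ± 0.22, 0.22 ± 0.22 and 0.05 ± 0.22. P4ha1 stood at -0.02 at day 7 without the 2 arrays with many non-uniform spots.

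Plod2, the lysyl hydroxylase that acts on collagen telopeptides and so sets which crosslinks form, showed the second largest rise. Its levels were 1.30, 0.34 and 0.09 at day 0, 4.22, 4.41 and 3.48 at day 7, 3.45, 3.46 and 3.60 at day 14, and 4.36, 4.67 and 3.61 at day 28. The graft arrays were again all above day 0, and the third arrays of days 7 and 28 lay lower than their partners. Plod2 rose by 3.46 ± 0.38 (adjusted p = 0.000118), 2.93 ± 0.38 (adjusted p = 0.000241) and 3.64 ± 0.38 (adjusted p = 0.000134), or 11-fold, 7.61-fold and 12.4-fold. A second Plod2 probe gave 3.47, 2.92 and 3.61. The related lysyl hydroxylases moved less: Plod1 was at 0.06 ± 0.20, -0.03 ± 0.20 and 0.18 ± 0.20 with no call, and Plod3 passed at day 28 alone (0.84 ± 0.26, adjusted p = 0.0311). Of the 6 fits without 1 array, the Plod3 call was kept only in that without day 0 replicate 1 (adjusted p up to 0.0853 in the others) and was lost without the arrays with many non-uniform spots (0.55, adjusted p = 0.053).

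P3h1, the prolyl 3-hydroxylase, works in a complex with Crtap and the prolyl isomerase Ppib. P3h1 levels were 0.52, -0.16 and -0.20 at day 0, 2.35, 2.58 and 1.91 at day 7, 2.21, 2.03 and 2.27 at day 14, and 2.16, 2.32 and 2.04 at day 28. The 2 sets of arrays did not overlap on any day. It rose by 2.23 ± 0.24 (adjusted p = 0.000113), 2.12 ± 0.24 (adjusted p = 0.000113) and 2.12 ± 0.24 (adjusted p = 0.000218), or 4.68-fold, 4.33-fold and 4.34-fold. Ppib rose by 0.60 ± 0.17, 0.90 ± 0.17 and 0.81 ± 0.17 (adjusted p = 0.0229, 0.00265 and 0.00583), and its day 7 call was lost without day 7 replicate 1 or 2 (adjusted p up to 0.0812). Crtap was at 0.09 ± 0.28, 0.41 ± 0.28 and 0.13 ± 0.28 with no call, so the genes of this complex did not pass the test together. Crtap stood at -0.10 at day 7 and -0.23 at day 28 when those 2 arrays were left out.

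Of the collagen chaperones Fkbp10 and Serpinh1, Fkbp10, a prolyl isomerase of the ER, changed more. Fkbp10 levels were 3.91, 3.37 and 2.81 at day 0, 4.80, 4.92 and 4.51 at day 7, 4.82, 4.96 and 5.03 at day 14, and 4.74, 4.60 and 4.92 at day 28. The lowest graft array was above the highest of day 0. Its rise was 1.38 ± 0.26 (adjusted p = 0.00267), 1.57 ± 0.26 (adjusted p = 0.00104) and 1.39 ± 0.26 (adjusted p = 0.00286). Serpinh1, which encodes Hsp47 and binds the folded procollagen helix, rose by 0.73 ± 0.17, 0.71 ± 0.17 and 0.66 ± 0.17 (adjusted p = 0.00935, 0.00899 and 0.0154). Its day 28 call was lost without day 28 replicate 1 or 3 (adjusted p up to 0.0579).

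Pcolce, a secreted enhancer of the protease that trims procollagen ends, stood at 5.40, 4.63 and 4.71 at day 0, 6.06, 6.19 and 5.68 at day 7, 5.59, 5.62 and 5.63 at day 14, and 5.87, 5.93 and 5.71 at day 28. Every graft array was above day 0, by a narrow margin at day 14. Pcolce rose by 1.06 ± 0.22 (adjusted p = 0.00508), 0.70 ± 0.22 (adjusted p = 0.0321) and 0.92 ± 0.22 (adjusted p = 0.0106). The day 14 call was kept only in the fit without day 0 replicate 1 (adjusted p up to 0.0936 in the others). Collagen chain genes measured beside these enzymes were higher for 6, 4 and 5 of 8 tested, where 20.1%, 22.5% and 20.1% of all genes were higher. Col5a1, a regulator of fibril width, rose by 3.59 ± 0.28, 3.60 ± 0.28 and 3.62 ± 0.28, and Col1a2, a chain of type I collagen, by 1.28 ± 0.19, 1.08 ± 0.19 and 1.07 ± 0.19. Col3a1, the type III chain, rose by 0.89 ± 0.28 at day 7 and 0.81 ± 0.28 at day 14 and stood at 0.61 ± 0.28 at day 28. No matched probe was found for Col1a1.

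**Figure D2:**
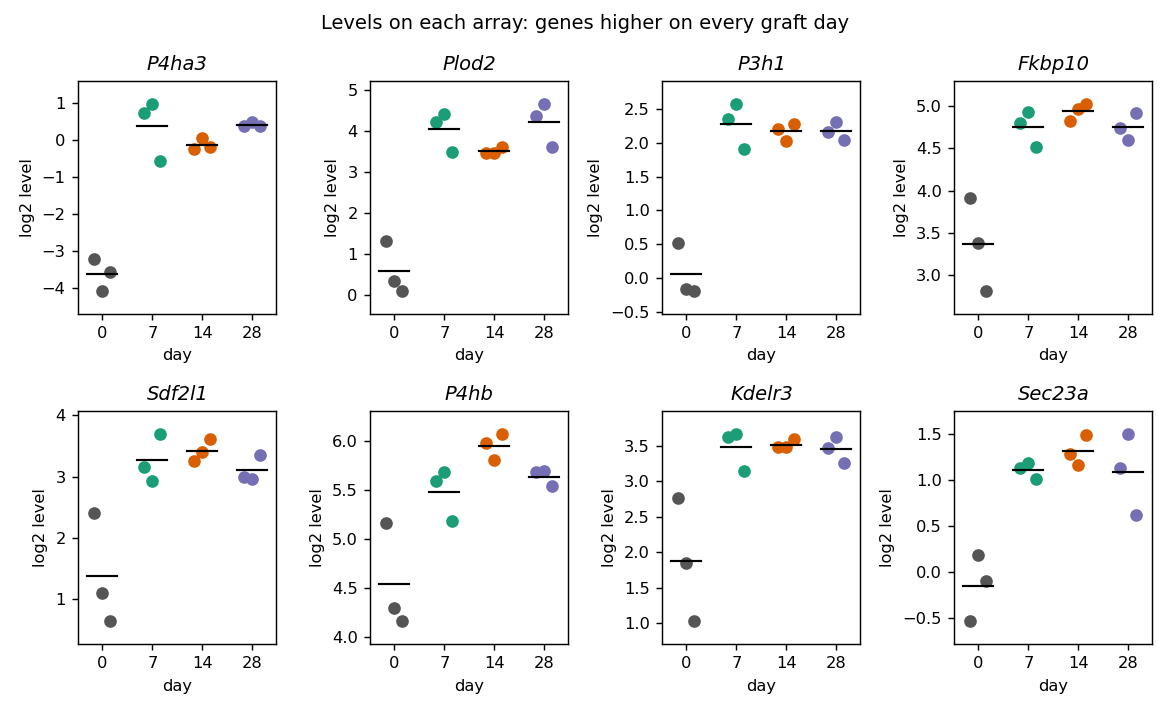
Log2 level relative to the array's 75th percentile (y axis, a separate scale for each gene) on each of the 12 arrays by day (x axis), for 8 genes that were higher on all 3 graft days; points are replicates 1 to 3 from left to right and lines are means. For each of the 8 genes the lowest graft array lies above the highest day 0 array, by a narrow margin for P4hb. For P4ha3 the highest day 0 array is at -3.22 and the lowest graft array at -0.55. The 8 were picked from members already called higher, so this separation is no further result. The share of all probes that separate in this way is not given.

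Among the disulfide isomerases, P4hb, which is also the second subunit of prolyl 4-hydroxylase, was higher throughout. P4hb levels were 5.16, 4.30 and 4.16 at day 0, 5.59, 5.68 and 5.18 at day 7, 5.98, 5.80 and 6.07 at day 14, and 5.68, 5.69 and 5.54 at day 28. Day 0 replicate 1 was close to the lowest graft array. The rise was 0.94 ± 0.26 (adjusted p = 0.0185), 1.41 ± 0.26 (adjusted p = 0.00199) and 1.1 ± 0.26 (adjusted p = 0.00938), with the day 7 call lost without day 0 replicate 2 or day 7 replicate 1 or 2 (adjusted p up to 0.0642). Pdia6 levels were 4.03, 3.87 and 4.27 at day 0, 4.43, 4.60 and 4.73 at day 7, 4.42, 4.21 and 4.52 at day 14, and 4.64, 4.69 and 4.30 at day 28. Its day 7 change of 0.53 ± 0.18 lay at the threshold (adjusted p = 0.04997) and was kept only in the fit without day 0 replicate 3 (adjusted p up to 0.129 in the others), while days 14 and 28, at 0.32 ± 0.18 and 0.49 ± 0.18, did not pass. Without the 2 arrays with many non-uniform spots day 28 passed (0.59 ± 0.17, adjusted p = 0.0221). Pdia4 was at 0.16 ± 0.28, 0.16 ± 0.28 and 0.11 ± 0.28 with no call, and without those arrays at -0.13, -0.19 and -0.24, again with no call.

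The ER chaperones did not move as 1 group. Of 9 measured, 3 were higher at day 7, 4 higher and 2 lower at day 14, and 3 higher and 1 lower at day 28. The shares of all 12353 genes were 20.1%, 22.5% and 20.1% higher and 16%, 18.4% and 15.4% lower. Hspa5, the main Hsp70 chaperone of the ER and the usual reporter of the UPR, was not called on any graft day: its levels were 6.39, 6.08 and 5.56 at day 0, 6.29, 6.06 and 6.46 at day 7, 6.07, 6.04 and 6.20 at day 14, and 6.08, 5.71 and 6.47 at day 28. Its arrays overlapped on every day, and its changes were 0.26 ± 0.25, 0.09 ± 0.25 and 0.07 ± 0.25 (adjusted p = 0.469, 0.801 and 0.84). Without the 2 arrays with many non-uniform spots they were -0.06, -0.13 and -0.15, also without a call.

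Calr and Sdf2l1 were the chaperones that rose most. Calr, calreticulin, a lectin chaperone that also stores calcium, was at 1.68, 2.10 and 0.89 at day 0, 3.50, 3.13 and 3.26 at day 7, 3.93, 3.93 and 4.10 at day 14, and 2.61, 2.69 and 2.64 at day 28. No graft array overlapped day 0, and day 14 was the highest. Calr rose by 1.74 ± 0.27 (adjusted p = 0.000909), 2.43 ± 0.27 (adjusted p = 9.84e-05) and 1.09 ± 0.27 (adjusted p = 0.0111). Sdf2l1, which works with Dnajb11 as a partner of Hspa5, was at 2.41, 1.11 and 0.64 at day 0, 3.16, 2.93 and 3.70 at day 7, 3.26, 3.41 and 3.62 at day 14, and 2.99, 2.97 and 3.35 at day 28. Sdf2l1 rose by 1.88 ± 0.39 (adjusted p = 0.00497), 2.04 ± 0.39 (adjusted p = 0.00268) and 1.72 ± 0.39 (adjusted p = 0.0082), with day 0 replicate 1 the nearest to the graft.

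Dnajb11, an Hsp40 cochaperone, was at 1.49, 0.93 and 0.79 at day 0, 1.96, 1.96 and 1.95 at day 7, 1.96, 1.82 and 2.15 at day 14, and 2.03, 1.89 and 2.25 at day 28. It rose by 0.89 ± 0.21, 0.91 ± 0.21 and 0.99 ± 0.21 (adjusted p = 0.00803, 0.00619 and 0.00514). Dnajc3, a cochaperone that is also known as an inhibitor of eIF2 alpha kinases, passed at day 14 alone (0.51 ± 0.18, adjusted p = 0.0472), a call kept only in the fit without day 0 replicate 1 (adjusted p up to 0.137 in the others). It stood at 0.50 ± 0.18 at day 7 and 0.27 ± 0.18 at day 28.

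Canx and Hyou1 were lower at day 14. Canx, calnexin, the membrane-bound relative of calreticulin, was at -2.82, -2.58 and -2.89 at day 0, -3.03, -2.78 and -3.74 at day 7, -3.54, -3.73 and -3.37 at day 14, and -2.87, -2.54 and -3.05 at day 28. The day 14 arrays were all below day 0, a fall by 0.78 ± 0.26 (adjusted p = 0.0344), which was kept only in the fit without day 0 replicate 3 (adjusted p up to 0.105 in the others). Hyou1, a large Hsp70-type exchange factor, was at 2.81, 2.49 and 3.23 at day 0, 2.55, 2.87 and 2.98 at day 7, 2.16, 2.12 and 2.26 at day 14, and 2.85, 2.67 and 2.81 at day 28. It fell by 0.67 ± 0.21 at day 14 (adjusted p = 0.0278), kept only in the fits without day 0 replicate 1 or 2 (adjusted p up to 0.0798 in the others), and a second Hyou1 probe fell by 0.76 (adjusted p = 0.00952). At days 7 and 28, Canx stood at -0.42 and -0.06 and Hyou1 at -0.05 and -0.07. Without the 2 arrays with many non-uniform spots Hyou1 stood at 0.06 and 0.12 on those days.

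Of the genes for entry into the ER and vesicle transport, 5 of 6 were higher at day 7, 6 of 6 at day 14 and 5 of 6 at day 28, beside 20.1%, 22.5% and 20.1% of all genes. The largest rise among the 6 was in Kdelr3, a receptor that returns escaped ER proteins from the Golgi. Kdelr3 was at 2.77, 1.86 and 1.03 at day 0, 3.63, 3.67 and 3.14 at day 7, 3.48, 3.48 and 3.59 at day 14, and 3.47, 3.63 and 3.26 at day 28. Its day 0 arrays were spread wide and still lay below every graft array, and it rose by 1.60 ± 0.36, 1.63 ± 0.36 and 1.57 ± 0.36 (adjusted p = 0.0072, 0.0055 and 0.0082). Kdelr2, a receptor of the same family, was at 3.83, 3.60 and 3.41 at day 0, 4.79, 4.86 and 4.36 at day 7, 4.82, 4.87 and 5.04 at day 14, and 4.74, 4.77 and 4.66 at day 28. It rose by 1.05 ± 0.18, 1.30 ± 0.18 and 1.11 ± 0.18 (adjusted p = 0.00189, 0.000447 and 0.00166).

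Sec23a, a COPII coat subunit needed for the export of collagen, was at -0.54, 0.19 and -0.10 at day 0, 1.13, 1.18 and 1.01 at day 7, 1.29, 1.16 and 1.49 at day 14, and 1.13, 1.5 and 0.62 at day 28. The groups did not overlap, and Sec23a rose by 1.25 ± 0.25, 1.46 ± 0.25 and 1.23 ± 0.25 (adjusted p = 0.00406, 0.00146 and 0.00483). Sec61a1, the pore of the translocation channel, was at 4.18, 3.65 and 3.38 at day 0, 4.67, 4.82 and 4.08 at day 7, 4.66, 4.38 and 4.79 at day 14, and 4.72, 4.69 and 4.70 at day 28. Day 7 replicate 3 overlapped day 0. Sec61a1 rose by 0.79 ± 0.25, 0.87 ± 0.25 and 0.96 ± 0.25 (adjusted p = 0.0355, 0.0201 and 0.0147), kept in 2, 2 and 5 of 6 fits without 1 array (adjusted p up to 0.12, 0.0752 and 0.0508). The day 7 call was lost without day 0 replicate 2 or 3 or day 7 replicate 1 or 2, the day 14 call without day 0 replicate 2 or 3 or day 14 replicate 1 or 3, and the day 28 call without day 28 replicate 1.

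Sec61b, a small subunit of that channel, rose by 0.53 ± 0.14, 0.59 ± 0.14 and 0.48 ± 0.14, and its day 28 call was lost without any 1 of the day 28 arrays (adjusted p up to 0.0948). Ssr3, of the signal sequence receptor beside the channel, passed at day 14 alone (0.49 ± 0.16, adjusted p = 0.0375), kept only in the fit without day 0 replicate 1 (adjusted p up to 0.113 in the others). It stood at 0.34 ± 0.16 at day 7 and 0.27 ± 0.16 at day 28.

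Among the 7 UPR sensors and factors measured, 2 were higher at each graft day, while 2 were lower at day 14 and 1 at day 28. Of all 12353 genes, 20.1%, 22.5% and 20.1% were higher and 16%, 18.4% and 15.4% lower at days 7, 14 and 28. With 7 genes the counts lie near those shares. The 2 higher members of this role were the sensors. Atf6, which is cut in the Golgi to release a transcription factor, was at -2.0, -1.80 and -2.40 at day 0, -1.09, -1.05 and -1.58 at day 7, -1.02, -1.13 and -0.92 at day 14, and -0.89, -0.93 and -0.84 at day 28. All graft arrays were above day 0, and Atf6 rose by 0.82 ± 0.20, 1.04 ± 0.20 and 1.18 ± 0.20 (adjusted p = 0.0111, 0.00282 and 0.00198). Eif2ak3, the kinase PERK, was at 0.26, -0.31 and -0.01 at day 0, 0.73, 0.91 and 0.42 at day 7, 0.68, 0.47 and 0.73 at day 14, and 0.79, 1.03 and 0.50 at day 28. It rose by 0.71 ± 0.22, 0.65 ± 0.22 and 0.79 ± 0.22 (adjusted p = 0.0289, 0.0373 and 0.0176), kept in 3, 1 and 3 of 6 fits without 1 array (adjusted p up to 0.0993, 0.113 and 0.071). The day 7 and day 28 calls were lost without day 0 replicate 2 or replicate 1 or 2 of that day, and the day 14 call was kept only without day 0 replicate 1.

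Atf4, the factor whose translation rises when PERK is active, was lower at day 14. Its levels were 4.33, 4.33 and 4.85 at day 0, 3.99, 4.18 and 4.15 at day 7, 3.17, 3.37 and 3.31 at day 14, and 4.21, 4.24 and 4.12 at day 28. The day 14 arrays were below all others. Atf4 fell by 1.22 ± 0.18 at day 14 (adjusted p = 0.000499) and stood at -0.40 ± 0.18 at day 7 and -0.31 ± 0.18 at day 28. Ddit3, the factor CHOP of prolonged ER stress, was at 0.49 ± 0.25, -0.33 ± 0.25 and -0.39 ± 0.25 with no call, and reached -0.46 at day 28 without the arrays with many non-uniform spots (adjusted p = 0.0392). Herpud1, a UPR target in the degradation of ER proteins, was at 0.03 ± 0.21, -0.59 ± 0.21 and 0.19 ± 0.21 with no call, and its day 14 value passed without those arrays (-0.75, adjusted p = 0.00544).

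For 4 members, day 0 replicate 3 lay more than 1 log2 unit above both other day 0 arrays, and for 2 of them day 7 replicate 3 did the same at day 7. Over all tested probes that was so for 7.86% on day 0 replicate 3 and for 6.71% on day 7 replicate 3, and for 3.44% on both. Creb3l1, a transcription factor of collagen-secreting cells, was at 3.36, 4.17 and 7.23 at day 0, 2.20, 2.20 and 5.09 at day 7, 1.99, 2.39 and 1.74 at day 14, and 1.62, 1.75 and 1.60 at day 28. Its day 14 and day 28 arrays lay below all of day 0, and it fell by 2.88 ± 0.96 at day 14 (adjusted p = 0.0381) and by 3.26 ± 0.96 at day 28 (adjusted p = 0.0252). Without the 2 arrays its change was -1.56 ± 0.28 at day 7, -1.72 ± 0.26 at day 14 and -2.11 ± 0.26 at day 28, with adjusted p = 0.00377, 0.00103 and 0.000613. Without day 0 replicate 3 alone the day 14 change was -1.72 and the day 28 change -2.11, and neither passed. Both calls were also lost without any 1 array of the later day (adjusted p up to 0.104 and 0.0691).

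Hsp90b1, the Hsp90 of the ER, was at 5.94, 6.29 and 7.99 at day 0, 5.75, 5.73 and 6.55 at day 7, 5.79, 5.75 and 5.78 at day 14, and 5.39, 5.25 and 5.6 at day 28. It fell by 1.33 ± 0.45 at day 28 (adjusted p = 0.0449), by 0.70 without the 2 arrays (adjusted p = 0.00780), and the call was lost without day 0 replicate 3 or any 1 array of day 28 (adjusted p up to 0.117). Xbp1, the factor whose transcript the sensor Ern1 splices, was at 3.13, 3.31 and 5.95 at day 0, 3.64, 3.67 and 3.58 at day 7, 3.46, 3.34 and 3.61 at day 14, and 3.60, 3.52 and 3.52 at day 28. Its change turned from -0.50 ± 0.58 at day 7 to 0.43 without the 2 arrays (adjusted p = 0.0437), and at days 14 and 28 from -0.66 and -0.58 to 0.25 and 0.33 with no call. Splicing of Xbp1 was not analysed here. Dnajb9, a cochaperone induced by Xbp1, was at 2.43, 2.80 and 6.84 at day 0, 2.94, 2.89 and 6.0 at day 7, 3.52, 3.25 and 3.11 at day 14, and 2.65, 2.79 and 2.31 at day 28, and its day 14 change turned from -0.73 ± 1.1 to 0.67 (adjusted p = 0.0233). The day 7 change of Dnajb9 also turned, from -0.08 to 0.29, with no call. The array values of Hspa5, Xbp1 and Dnajb9 are given by a choice made after they were seen.

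**Figure D3:**
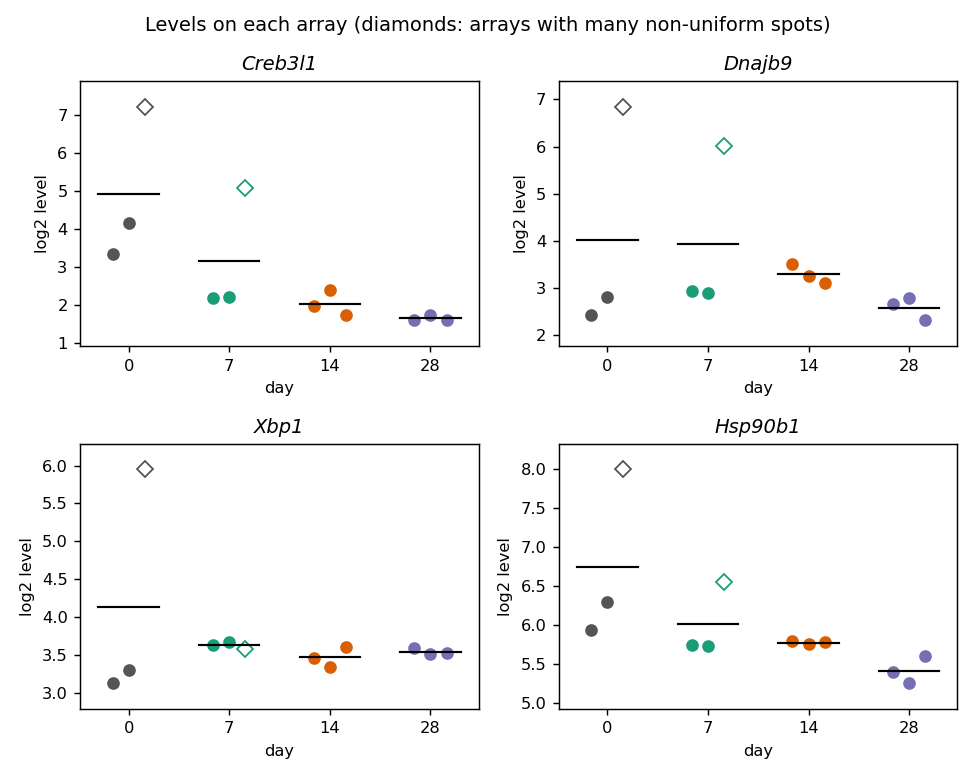
Log2 level relative to the array's 75th percentile (y axis, a separate scale for each gene) on each of the 12 arrays by day (x axis) for Creb3l1, Dnajb9, Xbp1 and Hsp90b1; open diamonds are day 0 replicate 3 and day 7 replicate 3, and lines are means of 3 arrays. The day 0 diamond is the highest array for each gene, at 7.23, 6.84, 5.95 and 7.99, and the day 7 diamond of Creb3l1 (5.09) and Dnajb9 (6.0) also lies apart.

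Few members differed between graft days, as was so for all probes. Between days 14 and 7, 0 members were higher and 1 lower, against 1.38% and 1.88% of probes. Between days 28 and 14, 1 was higher and 1 lower, against 2.4% and 2.08%, and between days 28 and 7 none passed in limma, with 2 at an unadjusted p under 0.05, against 0.75% and 1.03%. For the 18 members that were higher on all 3 days, the graft day means lay within a median of 0.24 of each other. Calr had the widest spread of these means, 1.34, and Plod2 the next, 0.71.

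Atf4 and Calr were the members that passed between graft days, and they moved in opposite directions. Atf4 fell by 0.82 ± 0.18 from day 7 to day 14 (adjusted p = 0.0337) and rose by 0.91 ± 0.18 from day 14 to day 28 (adjusted p = 0.0213). Calr fell by 1.34 ± 0.27 from day 14 to day 28 (adjusted p = 0.0233). Leaving out any 1 of the 6 arrays lost both calls between days 28 and 14 (adjusted p from 0.0527 to 0.115 for Atf4 and from 0.0645 to 0.106 for Calr), and the Atf4 call between days 14 and 7 was kept without day 7 replicate 3 alone. The sizes moved little, from 0.85 to 0.95 for Atf4 and from -1.37 to -1.28 for Calr. Within scan 1, with 2 arrays of each day, the difference of day 28 from day 14 was 0.88 for Atf4 and -1.36 for Calr; these are 4 of the 6 arrays behind the calls and no independent check. Herpud1 (0.78 ± 0.21), Canx (0.73 ± 0.26) and Hyou1 (0.60 ± 0.21) stood higher at day 28 than at day 14 without passing (adjusted p = 0.068, 0.13 and 0.125). Liver transcripts also differed at day 14: 4 of 5 markers were higher than day 0, with summed levels of 3.93 to 18.8 against 0.402 to 2.52 on the other days. The part of that shift in these values was not tested.

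**Figure D4:**
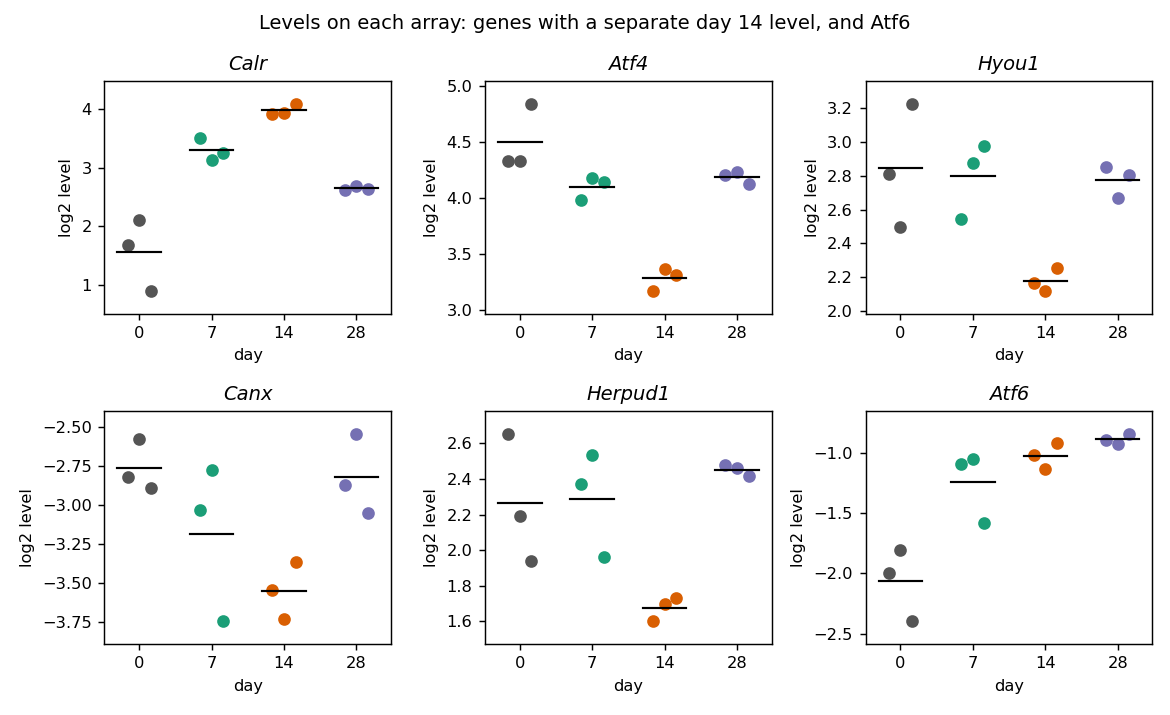
Log2 level relative to the array's 75th percentile (y axis, a separate scale for each gene) on each of the 12 arrays by day (x axis) for Calr, Atf4, Hyou1, Canx, Herpud1 and Atf6; points are replicates 1 to 3 from left to right and lines are means. The day 14 arrays are the highest for Calr (3.93 to 4.10) and the lowest for Atf4 (3.17 to 3.37), while Atf6 stays near -1 on the graft days.

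Related genes outside the group were counted from lists of the same pathways, beside the shares of all probes given above. Other collagen modification and export genes were higher for 6, 4 and 4 of 10 at days 7, 14 and 28 and lower for 2 on each day. P3h4, which assists the hydroxylation of collagen lysines, rose by 2.07 ± 0.48, 1.96 ± 0.48 and 2.20 ± 0.48, and Colgalt1, which adds galactose to hydroxylysine, by 1.01 ± 0.18, 1.23 ± 0.18 and 1.04 ± 0.18. In contrast P3h2, a prolyl 3-hydroxylase paralogous to P3h1, fell by 3.22 ± 0.35, 4.10 ± 0.35 and 2.32 ± 0.35, and Tmem38b, an ER potassium channel, fell by 2.36 ± 0.33, 2.73 ± 0.33 and 2.04 ± 0.33. Other oxidoreductases were higher for 3, 4 and 4 of 12, led by Txndc11 (2.15 ± 0.49, 2.29 ± 0.49 and 2.17 ± 0.49) and with Erp29 at 0.91 ± 0.23, 1.37 ± 0.23 and 0.68 ± 0.23, and 1 of them, Dnajc10, was lower at day 7. Other ER chaperones were higher for 6, 5 and 4 of 12 and lower for none, led by Cnpy3 (1.60 ± 0.32, 2.25 ± 0.32 and 1.36 ± 0.32) and by Uggt1, the glucosyltransferase that returns misfolded glycoproteins to calreticulin and calnexin (1.91 ± 0.19, 2.33 ± 0.19 and 1.83 ± 0.19).

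Genes of ER-associated degradation were higher for 2, 2 and 3 of 9, with Sel1l, the scaffold of the ubiquitin ligase, at 1.14 ± 0.22, 1.32 ± 0.22 and 1.07 ± 0.22. Other genes of the UPR and the integrated stress response were higher for 6, 7 and 5 of 18 and lower for 1 on each day. Trib3, a pseudokinase induced by Atf4 and Ddit3, rose by 3.37 ± 0.36, 2.04 ± 0.36 and 2.64 ± 0.36, and Asns, asparagine synthetase and an Atf4 target, by 1.51 ± 0.28, 1.55 ± 0.28 and 1.44 ± 0.28, on days when Atf4 transcript was not called higher. Creb3l2, the factor closest to Creb3l1, fell by 0.95 ± 0.20, 1.04 ± 0.20 and 1.21 ± 0.20. Other translocation genes were higher for 2, 3 and 3 of 11 and lower for 4, 3 and 3: Ssr2 rose by 1.11 ± 0.22, 1.35 ± 0.22 and 0.85 ± 0.22, and Sec61g, the third subunit of the channel, fell by 0.94 ± 0.23, 1.04 ± 0.23 and 1.36 ± 0.23. Other coat and cargo receptor genes were higher for 7, 6 and 5 of 18 and lower for none, with Lman1, a cargo receptor of glycoproteins, at 1.59 ± 0.34, 1.93 ± 0.34 and 1.66 ± 0.34.

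The promoters of members were searched for the elements through which the UPR is known to act. RefSeq windows of 300 bases, from 250 before to 50 after the start of the gene in GRCr8, matched 32 of the 42 members. The ER stress response element (ERSE), CCAAT and CCACG with 9 bases between them, known to bind NF-Y and cleaved Atf6, was found on either strand in 6 of the 32 members and in 22 of all 33469 windows (0.0657%). ERSE-II, ATTGG and CCACG with 1 base between them, was found in 3 members and in 17 windows (0.0508%). The letters searched came from general knowledge of the UPR, and the list holds known UPR genes. The higher share among members is therefore no test of the list. The following stretches show each match with up to 12 bases on both sides, on the strand of the gene, with the match in capitals, since these 9 members are the ones whose changes can be set beside an element.
Hspa5 (ERSE, chr3:38452961-38453003, plus strand): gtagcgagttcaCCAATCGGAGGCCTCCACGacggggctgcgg
Hsp90b1 (ERSE, chr7:23012439-23012481, minus strand): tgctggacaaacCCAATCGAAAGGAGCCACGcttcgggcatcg
Hsp90b1 (ERSE on the opposite strand, chr7:23012335-23012377, minus strand): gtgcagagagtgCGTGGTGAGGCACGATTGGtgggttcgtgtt
Calr (ERSE on the opposite strand, chr19:40213123-40213165, plus strand): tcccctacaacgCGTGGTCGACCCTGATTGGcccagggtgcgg
Canx (ERSE, chr10:35158057-35158099, minus strand): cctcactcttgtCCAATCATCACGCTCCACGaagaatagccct
Dnajc3 (ERSE, chr15:102432522-102432564, plus strand): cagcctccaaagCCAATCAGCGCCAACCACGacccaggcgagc
Xbp1 (ERSE, chr14:84604546-84604588, plus strand): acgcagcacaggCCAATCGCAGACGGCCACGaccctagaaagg
Hyou1 (ERSE-II on the opposite strand, chr8:53602682-53602716, plus strand): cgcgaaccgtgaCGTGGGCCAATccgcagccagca
Hyou1 (ERSE-II on the opposite strand, chr8:53602782-53602816, plus strand): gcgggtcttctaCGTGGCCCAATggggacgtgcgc
Dnajb11 (ERSE-II, chr11:91672788-91672822, minus strand): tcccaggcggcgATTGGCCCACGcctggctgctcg
Herpud1 (ERSE-II, chr19:10614809-10614843, minus strand): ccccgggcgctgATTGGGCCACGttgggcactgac

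These 9 members did not share a direction. At day 7, 2 of the 9 were higher and 0 lower. At day 14, 3 were higher (Calr, Dnajb11 and Dnajc3) and 2 lower (Canx and Hyou1), and at day 28 2 were higher and 1 lower. Of all 12353 genes, 20.1%, 22.5% and 20.1% were higher on those days and 16%, 18.4% and 15.4% lower, so with 9 genes these counts lie near those shares. The median log2 change of the 9 was 0.03, -0.59 and 0.07. Without the 2 arrays with many non-uniform spots it was 0.06, -0.13 and 0.12, with 3 higher and 3 lower at day 14. Among the 23 measured members whose window held neither element, 12, 13 and 13 were higher and 0, 2 and 1 lower, with medians of 0.60, 0.59 and 0.66, or 0.45, 0.60 and 0.55 without those arrays. The difference between these sets was not tested, since the sets were formed from sequence with the values known. Hspa5, with an ERSE 43 bases before its start, and P4ha3, the member that rose most, whose window held neither element, are shown whole, with the ERSE in capitals.
Hspa5 (chr3:38452766-38453065, plus strand): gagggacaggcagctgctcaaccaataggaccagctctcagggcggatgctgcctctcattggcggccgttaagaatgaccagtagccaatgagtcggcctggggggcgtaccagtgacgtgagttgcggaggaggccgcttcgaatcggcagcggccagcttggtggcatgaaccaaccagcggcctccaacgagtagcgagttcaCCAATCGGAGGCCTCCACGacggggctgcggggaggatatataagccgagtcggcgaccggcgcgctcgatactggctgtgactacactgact
P4ha3 (chr1:164040614-164040913, plus strand): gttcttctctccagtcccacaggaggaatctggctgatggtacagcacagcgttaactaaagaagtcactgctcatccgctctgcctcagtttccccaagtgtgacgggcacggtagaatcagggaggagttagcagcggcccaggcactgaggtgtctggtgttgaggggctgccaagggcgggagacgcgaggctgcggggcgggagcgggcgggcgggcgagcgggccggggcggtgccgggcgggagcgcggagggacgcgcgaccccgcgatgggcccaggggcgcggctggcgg

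**Figure D5:**
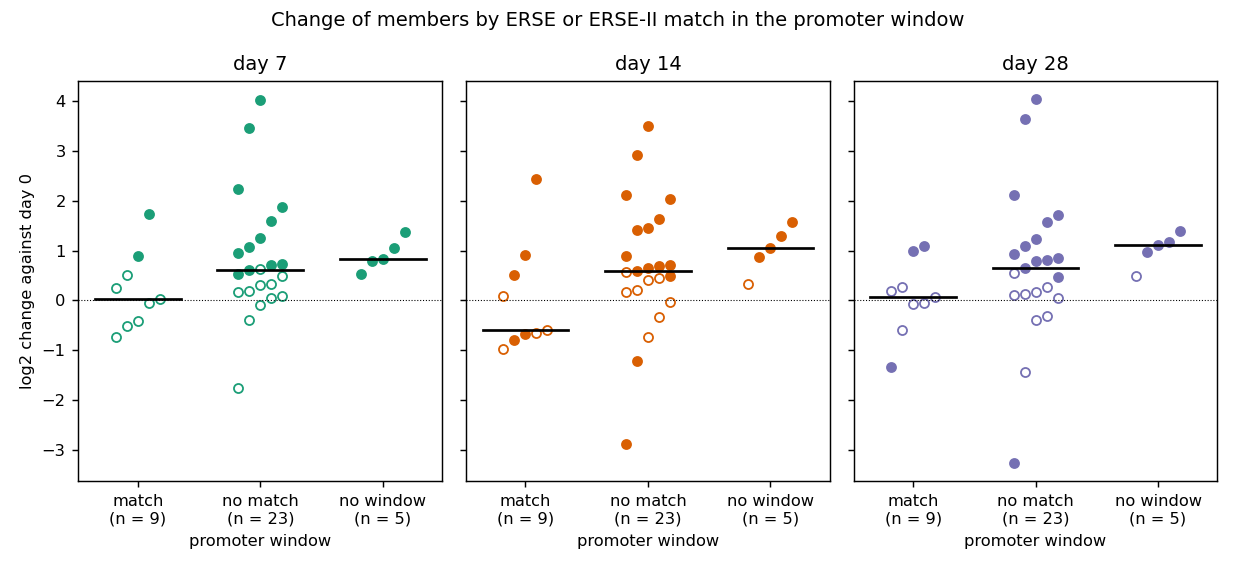
Log2 change against day 0 (y axis) at days 7, 14 and 28 for measured members whose promoter window held an ERSE or ERSE-II match (n = 9), held neither (n = 23) or was not in the table (n = 5); points are genes, filled where the adjusted p was under 0.05, and lines are medians. The medians of the first set are 0.03, -0.59 and 0.07 and those of the second 0.60, 0.59 and 0.66; without the 2 arrays with many non-uniform spots, which the plot includes, the day 14 medians are -0.13 and 0.60.

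A shorter element, the core TGACGTGG of the UPR element that Xbp1 and Atf6 are known to bind, was found in 199 of all windows (0.595%) and in 3 members. In Hyou1 it overlaps the upstream ERSE-II. The others were Sec23a and Kdelr3, both higher on all 3 days, whose matches are shown in capitals with 12 bases on each side.
Sec23a (chr6:82440976-82441007, minus strand): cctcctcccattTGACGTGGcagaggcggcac
Kdelr3 (core on the opposite strand, chr7:112959519-112959550, plus strand): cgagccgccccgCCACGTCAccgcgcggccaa
The element TGATGCAAT, as bound by Atf4 with C/EBP partners, was in 63 windows (0.188%) and in 0 of the 32 members. No match says only that these letters are not in the window.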

How the data were processed

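Each of the 12 deposited scanner tables holds spot intensity that Agilent Feature Extraction had corrected for background, per the file headers. The submitters' processing notes give its version as 11.0.1.1. Per the labels' protocols, ribosomal RNA was removed and Cy3 cRNA was made along whole transcripts with oligo(dT) and random primers. A further table from the authors was deposited with values in the range of log2 intensity, whose normalization is not given in the sources used here. Its columns had medians of 7.149 to 7.153 and each matched its own array (r from 0.9936 to 0.9992 across probes), so its direction is known. Sorted values of each column differed from those of the first by a median of at most 0.0035, and by at most 0.31 at any rank. The columns thus have nearly 1 distribution, the form that quantile normalization leaves, so this table and quantile normalization are not separate alternatives.

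Control spots and spots marked as outliers were left out, spots of a probe were averaged, and log2 intensity minus the 75th percentile of the array gave the level. Probes well above background on at least 3 arrays were tested (21063 of 24684), and the brightest probe stood for a gene. A probe counted as well above background where no fewer of its spots passed than failed. That definition was set after a first fit had used any spot, under which 18 members were called at day 7. A model with 1 mean for each day was fitted to all 12 arrays in limma 3.58.1 (R 4.3.3), with Benjamini-Hochberg adjustment over all tested probes. RefSeq names came from the GRCr8 table, which matched 14274 of 15321 coding accessions. The number of arrays limits the precision. The fit was also run on simulated data with independent normal noise. That simulation held no scan effect and no arrays that stood apart, so it cannot show how the fit behaves with these.

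All 42 members are named. In each role, the 4 called members with the largest change, those called against their role's majority and those called between graft days are given array by array. From each other list up to 3 called genes a direction are named. The members and lists were chosen with earlier results of these data known. Alternatives were normexp with quantile normalization (run on median spot signals, since mean signals are not in the tables), median scaling, quantile normalization, other filters, the scan as a fixed or random block, array weights, fewer arrays, the deposited table and the mean over probes. Reading and plotting used Python 3.11.15, pandas 2.3.3, NumPy 2.4.6 and Matplotlib 3.10.9.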

Additional observations from a re-analysis of the deposited data

Results flagged for a closer look

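Calr and Atf4 differed between graft days. Atf4 was lower at day 14 than at day 7 (log2 difference -0.82) and higher at day 28 than at day 14 (0.906), and Calr was lower at day 28 than at day 14 (-1.34). Each difference passed the adjusted limma test between those days in the fit of all arrays. The 2 calls between days 28 and 14 were kept in 0 of 6 fits without 1 array. The Atf4 call between days 14 and 7 was kept in 1 of 6. All of these calls were also lost with either fixed scan block. No explanation was tested.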

How the results depend on the processing

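The median change of the members stayed above 0 on every graft day under each alternative tried. With either fixed block these medians rest on day 28 replicate 3 as the only graft array scanned with day 0. At day 28 it was 0.84 with normexp, 0.84 with quantile normalization and 0.83 with the deposited table, against 0.56. Normexp was also followed by quantile normalization, and the deposited columns have nearly 1 distribution, so these values are not separate results. Calls at days 7, 14 and 28 fell to 0, 1 and 3 with the scan as a fixed block, and to the same counts with scans 3 and 4 joined, an alternative added after seeing the data. Of all 21063 probes, 55, 1034 and 1363 were called with the fixed block and 40, 885 and 1415 with those scans joined. With only the arrays compared 7 members were called at day 7 and 11 at day 28, beside 2887 and 4635 probes. Leaving out 1 array gave 14 to 19, 16 to 25 and 14 to 21 calls against day 0, 0 to 2 between days 14 and 7, 0 between days 28 and 14, and 0 to 1 between days 28 and 7. Between days 14 and 7, median scaling and both fixed blocks gave 0 calls. Both fixed blocks gave 0 between days 28 and 14 as well. Without the arrays with many non-uniform spots there were 4 calls between days 14 and 7 and 6 between days 28 and 14. Of all 21063 probes, 2427 and 4805 were called in that fit. Between days 28 and 14 normexp gave 4 member calls beside 1219 probes, and the arrays compared alone gave 7 beside 6353 probes. The default array weights did not converge and ran from 0.0795 to 86.8; they gave 18, 21 and 29 calls between days 14 and 7, 28 and 14, and 28 and 7. Gene-by-gene weights, added after seeing those, gave 15, 22 and 15. These are counts of 37 members. Of all 21063 probes, the default weights called 13320, 16248 and 17564, and gene-by-gene weights 10670, 16406 and 13458. Most probes were thus called with either kind of weights, and the member counts are no result about the members. Among single members, Xbp1 at day 7 (0.434) and Dnajb9 at day 14 (0.675) reversed without the non-uniform arrays. Between days 28 and 7 the default weights reversed Hyou1 (0.301), Pdia6 (0.21), P4ha3 (-0.357), Plod1 (-0.0725), Crtap (-0.183), Sec61b (0.058) and Ssr3 (0.0887), and gene-by-gene weights reversed Hyou1 (0.249), Pdia6 (0.182), P4ha3 (-0.372) and Crtap (-0.163). Default weights also reversed Dnajb9 between days 14 and 7 (0.521). Fewer arrays enter where arrays are left out, and otherwise the cause was not tested. No paired analysis was possible because all arrays carry 1 replicate number.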
